A study of Mus musculus with 4 samples.

Results

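Aquaporins are channel proteins of the cell membrane, and this account covers the 8 mouse aquaporin genes Aqp1, Aqp3, Aqp4, Aqp5, Aqp7, Aqp8, Aqp9 and Aqp11 in the epithelium of the small intestine. They were taken by gene name from 13 probes of a microarray that carries 27734 named genes. The genes were chosen by name with the signals of this genotype comparison already known, in particular the low Aqp7 signal in IKKb(EE)IEC and its spread between the WT arrays, so every genotype value of a member is given as a description, and the adjusted p-values are those of the fit over all genes. IKKb(EE)IEC mice carry, in their intestinal epithelium, an IKKb kinase that is always switched on, and IKKb activates NF-kB. Their wild-type (WT) littermates were the controls. Each genotype gave 2 biological replicates of fresh enterocyte isolates, 1 array per replicate. The sources used here do not give the promoter of the transgene, the age, sex and strain of the mice or the number of mice behind a sample.

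Aquaporins pass water along osmotic gradients. The members fall by textbook classification into water-selective channels (Aqp1, Aqp4, Aqp5 and Aqp8), aquaglyceroporins, which also pass glycerol (Aqp3, Aqp7 and Aqp9), and Aqp11, a distant relative of the endoplasmic reticulum membrane. In the gut, Aqp3 is known from the basolateral membrane of epithelial cells and Aqp7 and Aqp8 from absorptive cells, while Aqp1 is best known from endothelium and red blood cells. Outside the gut, Aqp7 is the glycerol channel of fat cells and Aqp9 that of hepatocytes.

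In IKKb(EE)IEC epithelium, the transcripts of Aqp3, Aqp7, Aqp8 and Aqp11 were lower than in WT epithelium, and none of the family was higher. The signal was at least 12.8-fold lower for Aqp3, and 14.8-fold, 5.81-fold and 2.07-fold lower for Aqp7, Aqp8 and Aqp11. Aqp1, Aqp4 and Aqp5 did not pass the threshold, and Aqp9 was not well above background on any array. Of the 8 members, 7 could thus be tested, 4 fell, 0 rose (also at an unadjusted p below 0.05) and 3 did not pass. Over all 12437 genes tested, 7.2% were called lower and 8.02% higher (limma, adjusted p below 0.05). The median log2 fold change was -1.05 over the 7 members tested and -0.12 over all genes. Aqp3 entered the test only through its WT arrays, and a gene that enters in this way has to differ, so these counts are no evidence about the family. Without the filter on dim probes the median was -0.95 over all 8 members and -0.45 over 27727 genes. In 5 of the 7, both IKKb(EE)IEC arrays lay below both WT arrays, which was also the case for 40.8% of all genes, and in 0 of the 7 both lay above both WT arrays, as for 28.3% of all genes.

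All levels below are log2 of the spot signal minus the 75th percentile of its array, so that 0 is that percentile, and every fold change is the IKKb(EE)IEC mean less the WT mean on this scale, followed by its standard error (SE) from limma, over 2 arrays of each genotype. A probe counts as well above background where the scanner software flags it so. Apart from summed marker levels, levels of different probes are not set against each other. Where 1 array is left out, its genotype has a lone array, which is assumed to vary like the pair of the other genotype. Before the shift, the 75th percentile stood at 94.6 and 107.8 in IKKb(EE)IEC and at 60.3 and 66.1 in WT. Of the spots, 40.8% and 41.1% in IKKb(EE)IEC and 34.3% and 35.97% in WT were well above background. Over genes, the IKKb(EE)IEC arrays correlated at 0.994 with each other, the WT arrays at 0.978, and arrays of different genotype at 0.937 to 0.947. All 4 arrays shared 1 slide and 1 scan, with the IKKb(EE)IEC arrays at its positions 3 and 4 and the WT arrays at positions 1 and 2, so position and genotype cannot be told apart. All 9 enterocyte markers on the array were well above background on every array, but not even between genotypes: Fabp2 and Lct fell (-1.56 and -1.26, adjusted p = 0.0161 and 0.0284 by limma), Anpep rose (1.10, 0.0169), and Vil1, Cdh1, Epcam, Krt20, Alpi and Apoa4 did not pass. Ikbkb, the gene of the kinase, read 0.33 and 0.34 in IKKb(EE)IEC and -0.72 and -0.27 in WT (0.83 ± 0.21, adjusted p = 0.0550 by limma), and it is unknown here if its probe detects the transgene.

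**Figure D1:**
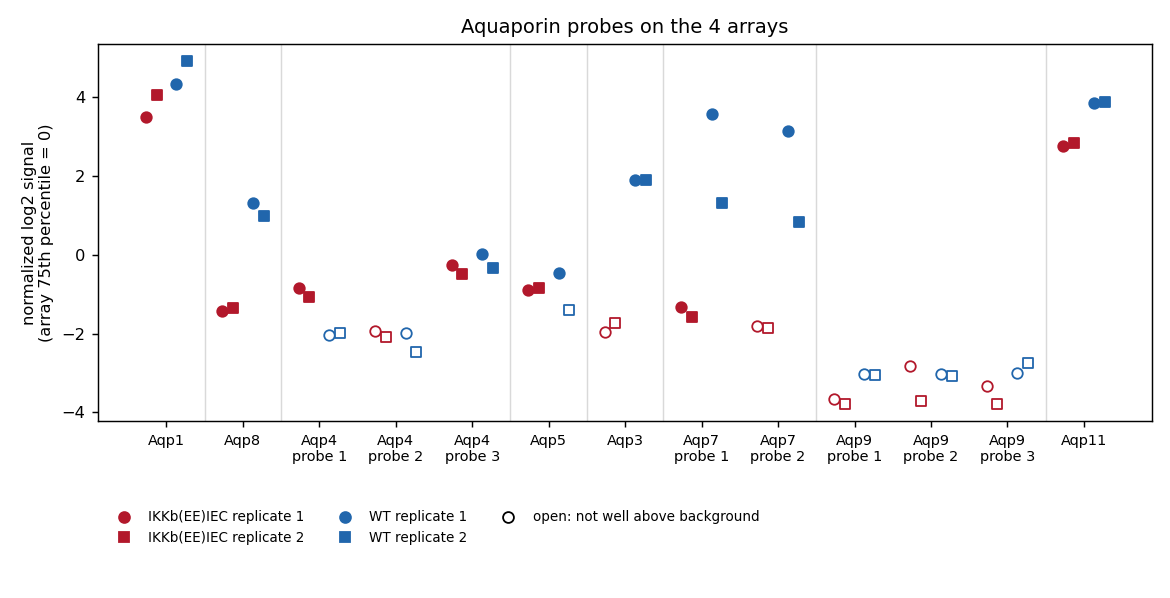
Normalized log2 signal (vertical axis, array 75th percentile at 0) of the 13 probes of the 8 aquaporin genes, with 1 point for each of the 4 arrays and open symbols where the probe was not well above background. The IKKb(EE)IEC points of Aqp3, Aqp7, Aqp8 and Aqp11 lie below both WT points, WT replicate 2 minus WT replicate 1 is -2.27 and -2.30 on the 2 probes of Aqp7, and all Aqp9 points are open.

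Aqp3, an aquaglyceroporin, had the tightest replicates among the large differences. Its probe lies on chromosome 4 (41281600 to 41281659, minus strand, mm8). The level was -1.97 and -1.75 in IKKb(EE)IEC, where neither array was well above background, and 1.89 and 1.90 in WT. The groups were 3.63 apart at their nearest arrays, and the arrays within a genotype differed by at most 0.22. Because both IKKb(EE)IEC arrays were at background, only a bound can be given, at least 12.8-fold lower (measured difference -3.75 ± 0.17, adjusted p = 0.000893 by limma). It holds on the 75th-percentile scale only. Its floor is the lowest level flagged well above background on each IKKb(EE)IEC array (-1.83 and -1.99), which replaces a level below it. The bound was 12.4 to 13.2 when any single array was left out. Before any scaling, the processed signal was 24.2 and 32.2 in IKKb(EE)IEC against 223 and 246 in WT. In the authors' value table, which is not on the same scale, the fold change was -1.54.

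Aqp7, the glycerol channel of absorptive cells and fat, differed as much on average but unevenly. It was read by a pair of probes on chromosome 4 (41222859 to 41222918 and 41222881 to 41222940, minus strand, mm8), which share 38 bases and so are not independent. With the probe that represents the gene, the level was -1.33 and -1.57 in IKKb(EE)IEC and 3.57 and 1.30 in WT. Both WT arrays lay above both IKKb(EE)IEC arrays, with WT replicate 1 well above WT replicate 2. The other probe read -1.82 and -1.87 in IKKb(EE)IEC, not well above background, and 3.13 and 0.83 in WT, so that WT replicate 2 minus WT replicate 1 was -2.30, after -2.27 for the first probe. The processed signal of the first probe with the software's own error was 37.7 ± 6.77 and 36.3 ± 6.82 in IKKb(EE)IEC and 716 ± 71.7 and 163 ± 17.1 in WT.

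The fold change of Aqp7 was -3.88 ± 0.71 (adjusted p = 0.0285 by limma, 95% interval -5.65 to -2.12). The second probe was at least 14.2-fold lower, a bound that was 6.39 without WT replicate 1 and 31.4 without WT replicate 2. That probe passed the filter only through its WT arrays and so had to differ. By the first probe Aqp7 was the 11th most negative of the 12437 genes tested. This place is a description only, since Aqp7 was chosen with its low signal known and the WT arrays differ. Set against each WT array alone, the mean IKKb(EE)IEC level was 32.4-fold below WT replicate 1 and 6.72-fold below WT replicate 2. Without WT replicate 1 the fold change was -2.75, and without WT replicate 2 it was -5.02. It did not pass without IKKb(EE)IEC replicate 1 or 2 (adjusted p = 0.0961 and 0.105 by limma), without the filter on dim probes (0.0601) or in the authors' value table (-2.31, 0.0543).

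**Figure D2:**
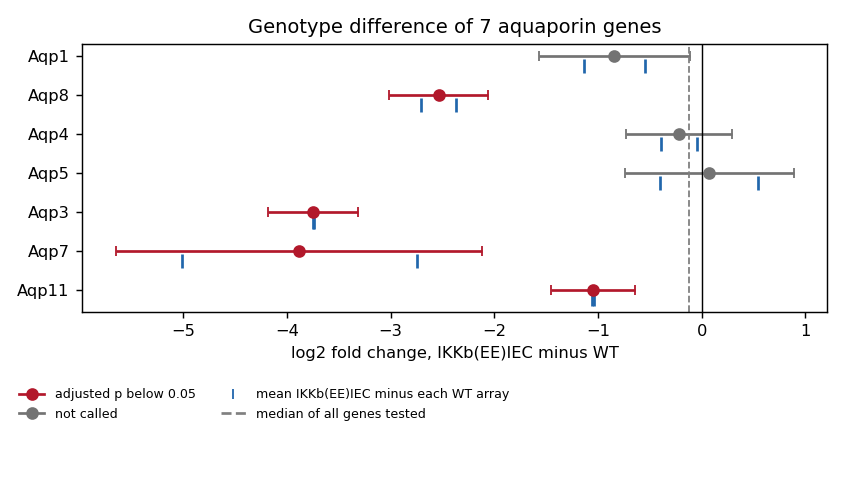
Log2 fold change (horizontal axis, IKKb(EE)IEC minus WT) of the 7 aquaporin genes tested, with the 95% interval of the limma fit as error bars, blue ticks for the mean of IKKb(EE)IEC minus each WT array alone, and a dashed line at the median of all genes (-0.12). The ticks of Aqp7 stand far apart (-5.02 and -2.75), while those of Aqp3 and Aqp11 nearly coincide.

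Aqp9, the hepatocyte glycerol channel, gave no measurable level. Its 3 probes on chromosome 9 read between -3.79 and -2.74 over the 4 arrays, none of them well above background, and the software had put a substituted value in place of the signal on 3, 3 and 1 of the arrays. Of 7 hepatocyte markers on the array, 4 (Alb, Ahsg, Apoh and Fgb) were well above background on WT replicate 2 and 0 on the other arrays. The Aqp9 probes read -3.06, -3.09 and -2.74 on WT replicate 2.

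Aqp7 was set beside markers of other cells and regions that the isolates could hold. Among 8 fat cell markers, Adipoq, Fabp4, Cfd, Retn, Cidea and Plin4 were not well above background on any array, while Lep was on all 4 arrays (called lower) and Plin1 on 1. Their summed level on the linear scale (array 75th percentile at 1) was 1.501 and 1.36 in IKKb(EE)IEC and 2.01 and 2.37 in WT. Markers of pancreatic acinar cells summed to 28.1 and 31.2 in IKKb(EE)IEC and 457 and 201 in WT. Within that list Clps read 3.94 and 4.33 in IKKb(EE)IEC and 8.78 and 7.52 in WT (-4.01, adjusted p = 0.00644 by limma, called lower). Pnliprp1 read -2.22 and -3.29 in IKKb(EE)IEC and 0.43 and -1.11 in WT. It was called too (adjusted p = 0.04999 by limma), but only its WT arrays brought it into the test, so it had to differ. Ctrb1 read 3.96 and 3.90 in WT and Cel -0.22 and -0.11, and neither passed. Clps, Pnliprp1 and, by little, Ctrb1 were higher on WT replicate 1, as Aqp7 was, and Cel on WT replicate 2. Cpa1, Cela2a and Pnlip were not well above background on any array. Paneth cell markers summed to 577 and 807 in IKKb(EE)IEC and 2436 and 6166 in WT. Of 5 tested, 4 were called lower (Ang4, Itln1, Lyz1 and Mmp7), where 7.2% of all genes were, and Defa21 did not pass. The members of that list disagreed on the WT arrays, since Ang4 was higher on WT replicate 1 and Lyz1, Mmp7, Itln1 and Defa21 were higher on WT replicate 2. Colon markers summed to 36.7 and 60.1 in IKKb(EE)IEC and 48.9 and 31.9 in WT, with no member called. The 9 neutrophil and macrophage markers summed to 11.0 and 8.46 in IKKb(EE)IEC and 2.66 and 4.43 in WT. Among them Adgre1 was at least 3.88-fold and Fcgr1 at least 9.89-fold higher in IKKb(EE)IEC (adjusted p = 0.00349 and 0.00385 by limma). Both entered the test only through their IKKb(EE)IEC arrays and so had to differ. Cd14, Cd68 and Csf1r did not pass (0.0713, 0.334 and 0.451), and Csf3r and S100a8 were not well above background on any array. The part of these cell types in the Aqp7 result was not tested.

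Some genes had nearly the same pattern as Aqp7 over the 4 arrays, measured as the Euclidean distance between gene-centred log2 levels. The 5 nearest were Gsdmc, a gasdermin gene (distance 0.38), Pnliprp2, a pancreatic lipase-related gene (0.41), Gsdmc2, another gasdermin (0.57), the Paneth cell ribonuclease gene Ang4 (0.74) and the lectin gene Reg4 (0.74). Gsdmc read 1.24 and 1.12 in IKKb(EE)IEC and 6.63 and 3.97 in WT. Pnliprp2 read -1.29 and -1.40 in IKKb(EE)IEC and 3.67 and 0.94 in WT. All 5 were higher on WT replicate 1 than on WT replicate 2, as Aqp7 was. Around Aqp3, the nearest named genes were Farsa, Gja5, Fstl3 and Cklf (0.12 to 0.30), after a transcript named only by an Ensembl identifier. Around Aqp8 they included Syn3, Iqcg, Rfk and Defa23 (0.07 to 0.22), and around Aqp11 Hcst, Acot13 and Ltb4r1 (0.04 to 0.06). Such nearness over 4 arrays describes the arrays only.

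**Figure D3:**
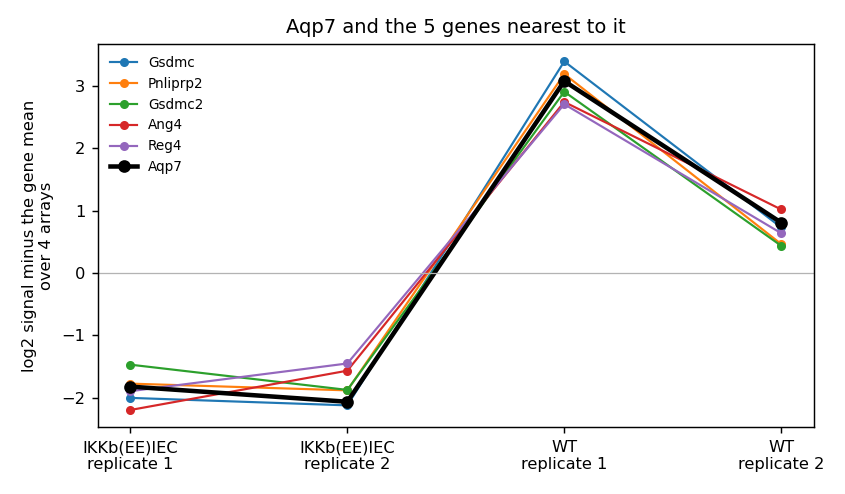
Log2 signal minus each gene's mean (vertical axis) on the 4 arrays for Aqp7 (black) and the 5 genes at the smallest distance from it, with lines only joining the points of a gene. All 6 curves lie low on both IKKb(EE)IEC arrays and are higher on WT replicate 1 than on WT replicate 2.

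The pair of aquaglyceroporin genes that fell, Aqp7 and Aqp3, are direct neighbours among protein-coding genes of chromosome 4 in the RefSeq gene order of GRCm38.p6. In the coordinates of the files (mm8) their probes lie 58.7 kb apart, both on the minus strand. On the side of Aqp7, Bag1, Chmp5 and Nfx1 had fold changes of -0.38 ± 0.18, -0.10 ± 0.18 and -0.48 ± 0.23 (adjusted p by limma = 0.175, 0.701 and 0.184). On the side of Aqp3, Nol6 and Ube2r2 had 1.74 ± 0.51 and -0.12 ± 0.18 (0.0728 and 0.663). The measured difference of Ubap2 was 1.94 ± 0.22 (0.00734). In WT, Nol6 read -1.33 and -2.89 and Ubap2 read -2.22 and -1.76. Levels well above background began at -1.30 and -1.39 on these arrays. Nol6 and Ubap2 thus entered the test only through their IKKb(EE)IEC arrays, so a higher level there was fixed in advance. None of these 6 neighbours was called lower, where 7.2% of all genes tested were, so few would be called in any such set. Among genes near other members, Aamdc, 3 genes from Aqp11, fell by 1.10 ± 0.18 (adjusted p = 0.0215 by limma). Clns1a and Pak1, on either side of Aqp11, had -0.05 and 0.11. Rsf1, between Aamdc and Aqp11, had a measured difference of 0.89 ± 0.18 (adjusted p = 0.0356 by limma). It read -1.90 and -1.78 in WT and likewise entered the test only through its IKKb(EE)IEC arrays.

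**Figure D4:**
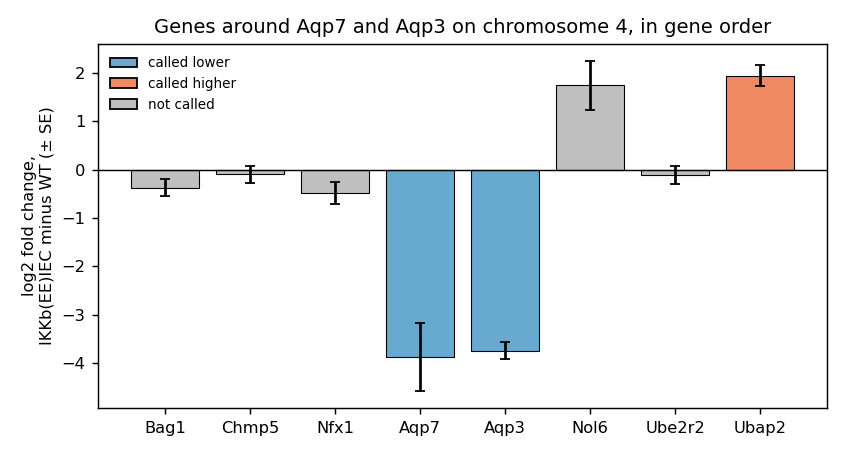
Log2 fold change (vertical axis, IKKb(EE)IEC minus WT, bars with SE of the limma fit) of Aqp7, Aqp3 and the 3 protein-coding genes on each side, in gene order along chromosome 4. The bars of Aqp7 and Aqp3 reach measured differences of -3.88 and -3.75, and no bar beside them falls below -0.48.

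The sequences upstream of Aqp3, Aqp7 and Aqp8 are shown because these are the members with the largest differences. They are the 250 bases before a transcription start from RefSeq (GRCm38.p6), 5′ to 3′ on the strand of the gene, at chr4:41098184-41098433 (minus strand) for Aqp3, chr4:41047963-41048212 (minus strand) for the second of 2 listed Aqp7 starts, and chr7:123462044-123462293 (plus strand) for Aqp8. Capitals mark matches, on either strand, to any of 4 motifs: the NF-kB consensus, the nuclear receptor half-site AGGTCA used by PPAR proteins, the CDX motif TTTAT and the GATA motif TGATAA.
Aqp3: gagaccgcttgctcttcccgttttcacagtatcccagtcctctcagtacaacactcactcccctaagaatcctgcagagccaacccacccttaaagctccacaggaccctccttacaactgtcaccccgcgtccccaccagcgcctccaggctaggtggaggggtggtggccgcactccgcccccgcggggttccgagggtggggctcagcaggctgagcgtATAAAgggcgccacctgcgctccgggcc
Aqp7: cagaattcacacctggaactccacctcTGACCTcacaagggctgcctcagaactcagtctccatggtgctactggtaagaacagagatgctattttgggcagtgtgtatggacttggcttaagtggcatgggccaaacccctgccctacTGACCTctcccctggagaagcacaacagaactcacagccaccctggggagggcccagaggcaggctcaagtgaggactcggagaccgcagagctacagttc
Aqp8: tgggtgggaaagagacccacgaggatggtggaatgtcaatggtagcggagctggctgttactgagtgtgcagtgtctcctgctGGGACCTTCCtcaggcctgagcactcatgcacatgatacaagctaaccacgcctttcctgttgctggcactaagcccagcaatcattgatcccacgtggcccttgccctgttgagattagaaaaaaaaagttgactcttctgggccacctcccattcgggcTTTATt
Upstream of Aqp8 lay 1 match to the NF-kB consensus (positions -167 to -158 from the start), which 7.25% of 32851 RefSeq windows of this length hold, and 1 TTTAT (-6 to -2). Upstream of the Aqp7 starts, which lie 174 bases apart and have overlapping windows, 2 distinct AGGTCA half-sites were found. Another lay upstream of Aqp11 (-230 to -225), and 14% of all single windows hold at least 1. The Aqp3 window held 1 match to TTTAT (-28 to -24), a motif found in 37.3% of windows, and its letters read ATAAA on the strand of the gene. A TGATAA, held by 7.94% of windows, was found upstream of Aqp9 among the 7 members in the RefSeq table. No match to the NF-kB consensus was found in the windows of Aqp1, Aqp3, Aqp5, Aqp7, Aqp9 and Aqp11. These matches describe letters only.

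Aqp8, a channel for water that also passes ammonia and hydrogen peroxide, was lower in both IKKb(EE)IEC samples. Its probe lies on chromosome 7 (123259070 to 123259129, plus strand, mm8) and was well above background on all 4 arrays. The level was -1.42 and -1.36 in IKKb(EE)IEC and 1.31 and 0.98 in WT, so the groups were 2.34 apart at their nearest arrays, more than the replicates of either genotype differed. The fold change was -2.54 ± 0.19 (adjusted p = 0.00316 by limma, 95% interval -3.01 to -2.06). With any single array left out it stayed between -2.70 and -2.37 (adjusted p up to 0.0279 by limma). In the authors' value table Aqp8 read 127 and 125 in IKKb(EE)IEC and 296 and 259 in WT, a fold change of -1.14.

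Aqp1, the water channel of endothelium and red blood cells, did not pass the threshold. Its probe lies on chromosome 6 (55278064 to 55278123, plus strand, mm8). The level was 3.49 and 4.03 in IKKb(EE)IEC and 4.31 and 4.90 in WT. The groups did not overlap, but the gap of 0.28 between the nearest arrays was smaller than the differences within a genotype, 0.54 in IKKb(EE)IEC and 0.59 in WT, in both cases with replicate 2 above replicate 1. The fold change of -0.84 ± 0.29 did not pass (adjusted p = 0.0980 by limma, 95% interval -1.57 to -0.12), but passed without WT replicate 1 (-1.14, adjusted p = 0.00208 by limma). It also passed with the replicate number as a block (-0.84, 0.0474), and it was -0.16 with no scaling between arrays (0.715). Of 8 endothelial markers 3 were well above background on any array (Plvap, Esam and Tek), and Pecam1, Cdh5, Kdr, Tie1 and Emcn on none. The summed level of the 8 was 3.18 and 3.002 in IKKb(EE)IEC and 3.92 and 4.74 in WT, and that of 5 red blood cell markers was 11.9 and 5.16 against 5.59 and 4.99. The part of blood vessels and blood in the Aqp1 signal was not tested. In bulk samples, fewer cells of a type and less RNA per cell cannot be told apart.

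Aqp4, a water channel known from the basolateral membrane of crypt and gastric cells, was read by 3 probes on chromosome 18 that disagreed. The probe with the highest level (15536475 to 15536534, minus strand, mm8), the only one well above background on all 4 arrays, read -0.27 and -0.49 in IKKb(EE)IEC and 0.01 and -0.33 in WT (-0.22 ± 0.20, adjusted p = 0.458 by limma). The genotypes overlapped. A second probe at 15536006 to 15536065 read -0.85 and -1.08 in IKKb(EE)IEC, where it was well above background. In WT, where it was not, it read -2.04 and -1.99. That makes it at least 1.30-fold higher in IKKb(EE)IEC (measured difference 1.05, adjusted p = 0.0232 among single probes by limma). This probe entered the test only through its IKKb(EE)IEC arrays and so had to differ. Without the filter on dim probes it did not pass (adjusted p = 0.0544 by limma). The remaining probe, at 15536642 to 15536701, was at background throughout. The measured direction of Aqp4 thus differed between probes, with that of the second probe fixed by the way it entered the test. The mean over the passing probes of Aqp4 was 0.42 (adjusted p = 0.152 by limma).

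Aqp5, a water channel of glands, did not differ beyond its spread. Its probe on chromosome 15 (99422734 to 99422792, plus strand, mm8) read -0.89 and -0.84 in IKKb(EE)IEC and -0.46 and -1.40 in WT, and it was at background on WT replicate 2. The IKKb(EE)IEC arrays lay between the WT arrays (0.07 ± 0.33, adjusted p = 0.885 by limma, 95% interval -0.75 to 0.89). Without WT replicate 1, where the remaining WT array is at background, it was at least 1.44-fold higher (adjusted p = 0.0285 by limma), and without WT replicate 2 it was -0.40. Brunner gland markers summed to 5.69 and 6.87 in IKKb(EE)IEC and 7.33 and 8.80 in WT.

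Aqp11, the aquaporin of the endoplasmic reticulum, fell by a smaller but evenly measured amount. Its probe lies on chromosome 7 (97601671 to 97601730, minus strand, mm8). The level was 2.76 and 2.82 in IKKb(EE)IEC and 3.83 and 3.85 in WT, with 1.01 between the groups and at most 0.06 within them. The fold change was -1.05 ± 0.16 (adjusted p = 0.0187 by limma, 95% interval -1.46 to -0.65). It did not pass without IKKb(EE)IEC replicate 1 or 2 (adjusted p = 0.196 and 0.184 by limma), where the values were -1.02 and -1.08. The size also rested on the scaling between arrays. The unscaled processed signal was 641 and 763 in IKKb(EE)IEC and 859 and 956 in WT, a log2 difference of -0.37, which did not pass (adjusted p = 0.243 by limma).

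Of the 4 other aquaporin genes on the array, only Aqp2, the vasopressin-regulated channel of the kidney, could be tested. It read -0.56 and -0.37 in IKKb(EE)IEC and -0.14 and 0.04 in WT, a fold change of -0.41 ± 0.18 that did not pass (adjusted p = 0.153 by limma). Mip, Aqp6 and Aqp12 were not well above background on any array.

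Genes of glycerol and neutral lipid turnover, which handle the cargo of the aquaglyceroporins, moved in both directions. Of 16 listed genes 14 were tested, 4 fell, 2 rose and 8 did not pass, with a median of -0.26 against -0.12 over all genes, of which 7.2% fell and 8.02% rose. With a shift by the array median, Gk alone was called lower. That fit gave all called genes of this list the same SE (0.324), so its calls follow the size of the change alone. The largest fall was that of Gk, the glycerol kinase that traps glycerol inside the cell, with levels of 0.96 and 1.29 in IKKb(EE)IEC and 3.43 and 2.80 in WT (-1.99 ± 0.27, adjusted p = 0.0134 by limma). Gpd1l, related to glycerol-3-phosphate dehydrogenase, fell by 0.91 ± 0.18 (0.0348), Mgll, the lipase that releases glycerol from monoacylglycerol, by 0.88 ± 0.17 (0.0322) and Mogat2, which re-esterifies monoacylglycerol in enterocytes, by 0.75 ± 0.17 (0.0445). The triglyceride lipase gene Pnpla2 rose by 1.24 ± 0.25 (0.0371) and Dgat2, which makes triglycerides, by 1.04 ± 0.17 (0.0211). The glycerol-3-phosphate dehydrogenase genes Gpd1 and Gpd2 had 0.14 ± 0.20 and 0.35 ± 0.33, and Gpam and Lpl were not well above background on any array. Without IKKb(EE)IEC replicate 1, or without replicate 2, no gene of this list was called, and Gk had -1.83 and -2.16 (adjusted p = 0.0916 and 0.0501 by limma).

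Ion and solute transport sets the osmotic gradients for water. Of 20 listed genes, all tested, 5 rose, 1 fell and 14 did not pass, with a median of 0.54 against -0.12 over all genes, of which 8.02% rose and 7.2% fell. Without WT replicate 1 the counts were 11 and 4, and with no scaling between arrays 15 and 0. Guca2b and Guca2a, the genes of uroguanylin and guanylin, peptides that drive fluid secretion through guanylate cyclase C, rose by 1.41 ± 0.17 and 1.38 ± 0.26 (adjusted p = 0.00879 and 0.0318 by limma). Guca2b read 10.45 and 10.59 in IKKb(EE)IEC and 9.08 and 9.12 in WT. Prkg2, the cGMP-dependent kinase of this route, rose by 1.26 ± 0.17 (0.0132), and its receptor gene Gucy2c had 0.14 ± 0.17. The potassium channel gene Kcnq1 rose by 1.60 ± 0.25 (0.0186), and Kcnn4 was at least 1.58-fold higher (0.0375). Kcnn4 entered the test only through its IKKb(EE)IEC arrays and so had to differ, which makes its place in the count no evidence. Slc9a2, a sodium-proton exchanger, fell by 0.67 ± 0.16 (0.0498), a call lost with a shift by the array median, quantile normalization or the replicate block, and the change was 0.0058 without scaling between arrays. The chloride channel Cftr, the exchanger Slc9a3 and the sodium-glucose transporter Slc5a1 had 0.54 ± 0.26, -0.50 ± 0.38 and 0.65 ± 0.27 and did not pass. None of these 6 calls held without IKKb(EE)IEC replicate 1 or without replicate 2.

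**Figure D5:**
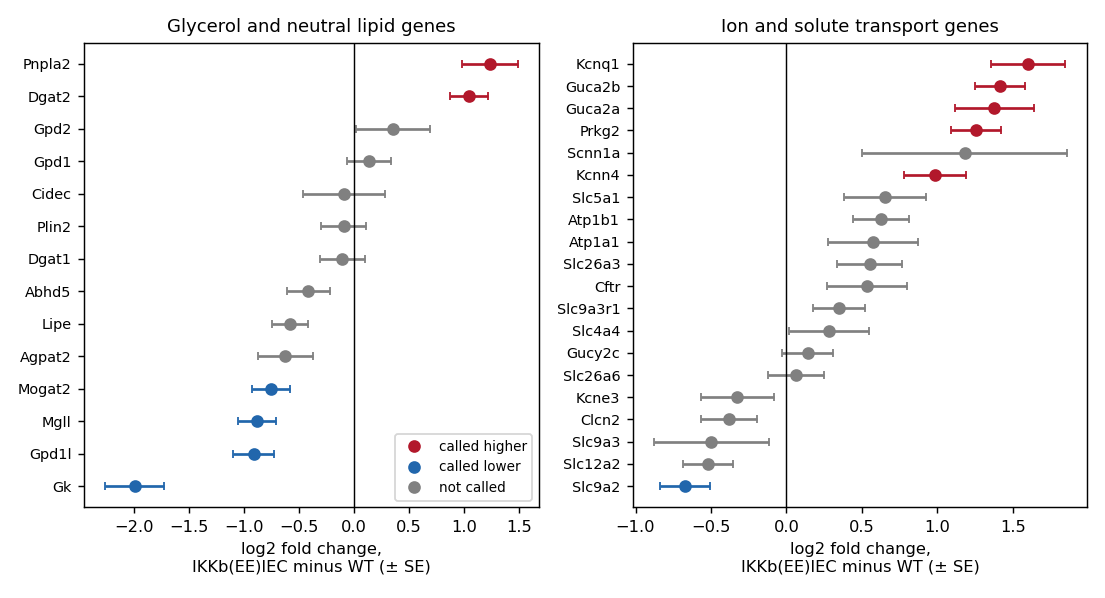
Log2 fold change (horizontal axes, IKKb(EE)IEC minus WT, points with SE of the limma fit) of the tested genes of glycerol and neutral lipid turnover (left) and of ion and solute transport (right). Gk stands lowest on the left at -1.99, and Kcnq1, Guca2b and Guca2a stand highest on the right at 1.60, 1.41 and 1.38.

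Transcription factor genes of the PPAR, RXR and enterocyte groups include known regulators of Aqp7 and other members. Of 14 listed 13 were tested, 2 rose, 1 fell and 10 did not pass, with a median of 0.22, against 8.02% and 7.2% of all genes that rose and fell. Foxo1 rose by 1.12 ± 0.18 (adjusted p = 0.0220 by limma), and Hnf4g fell by 0.97 ± 0.19 (0.0337). Pparg and Ppara, whose proteins bind the AGGTCA half-site shown above, had 0.13 ± 0.23 and 0.36 ± 0.16, and Ppard was not well above background on any array. The 3 calls were lost without IKKb(EE)IEC replicate 1 or without replicate 2.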

How the data were processed

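Total RNA was labelled with Cy3 and hybridised to 1-colour Agilent arrays of design 014868, 1 per sample. Per the file headers, the deposited intensities of the spots were extracted with version 9.5.3.1 of Agilent's Feature Extraction software, with spatial and multiplicative trends removed, surrogate values at dim spots and no normalization between arrays recorded. Other deposited columns used are flags of the spots. The authors also deposited a value table of linear intensities, and the sources used here do not give its normalization. It runs in the same direction as the scanner signal (Spearman correlation over probes 0.919 to 0.941), with medians of 111.5 to 112 and an offset that stays unknown.

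Processed signals were put on the log2 scale and each array's 75th percentile was subtracted. Control spots and non-uniform spots were left out, and probes were kept where well above background on at least 2 of 4 arrays. That left 16394 probes and, by the probe with the highest mean, 12437 genes, 3155 of them with several probes. Names came from RefSeq (GRCm38.p6) by accession for 24375 probes, through a shared listed name for 4647, and from the files for 12152. The genotype comparison used limma 3.58.1 (lmFit, then eBayes) under R 4.3.3, with two-sided p-values adjusted by Benjamini-Hochberg over all genes and a threshold of 0.05, and was tested on simulated data. A permutation over 2 against 2 arrays cannot give a two-sided p below 0.333. The number of arrays limits the precision. The text names all members, every called gene of the 4 lists, the 5 genes nearest to each called member, and other genes, such as chromosomal neighbours, chosen after their values were seen. A few genes that this rule names are not reported here. The members and lists were chosen with earlier results of these data known. Alternatives covered scaling, background correction, filters, probe choice, the authors' table, a replicate block and each array left out.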

Additional observations from a re-analysis of the deposited data

How the results depend on the processing

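Aqp8 passed under all 15 alternatives (-2.70 to -0.84), Aqp7 under 9 of 15 (-5.02 to -1.88) and Aqp11 under 12 of 15 (-1.08 to -0.37). Not all of these alternatives weigh the spread between arrays. With the shift by the array median the members had the same SE (0.324), so a call followed the size of the change alone. Leaving out a WT array takes the spread between the WT arrays out of the SE. Measured differences of Aqp3, which enters through its WT arrays and has only a bound, ran from -3.86 to -1.22. The ends -0.84, -1.88 and -1.22 came from the planned normexp correction, which failed on 2 arrays. The count of members called lower was 2 to 5 when 1 array was left out, and that of members called higher 0 to 1, through Aqp5 without WT replicate 1 (0.54). With every probe tested on its own 1 member was called higher, through the second Aqp4 probe. That probe entered the test only through its IKKb(EE)IEC arrays and so had to differ. Reversed values were those of Aqp4, 0.42 with the mean over probes and 0.46 with no shift between arrays, and of Aqp5, -0.0071 in the authors' value table and -0.40 without WT replicate 2. Slc9a2 reversed to 0.0058 with no shift. The cause of these changes was not tested. Over all genes, calls higher and lower were 501 and 342 without a filter and 4785 and 204 with no shift, which moves the median of all genes to 0.56. Leaving out 1 array gave 165 to 2633 higher and 82 to 3542 lower calls, against 997 and 896 with all arrays, the fewest without IKKb(EE)IEC replicate 1 and the most without WT replicate 1. Higher genes made up 52.7% of calls, 63.2% with a shift by the array median, 40.0% with probes well above background on all 4 arrays and 95.9% with no shift. The replicate numbers of the labels are shared by the genotypes, with no source for a pairing, and same-numbered arrays deviated together at a correlation of 0.108. With the replicate block 587 genes were called lower and Aqp1 passed (-0.84, adjusted p = 0.0474 by limma). The planned normexp correction failed on 2 arrays, each with 4 spots at or below local background. Refitted without those spots, and added with the unshifted values after the data were seen, it gave -1.84, -2.50, -1.26 and -0.94 for Aqp3, Aqp7, Aqp8 and Aqp11, with Aqp7 not passing (adjusted p = 0.0511 by limma). Precision for Aqp3, Aqp9 and dim Aqp4 probes is limited by background.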
